A study of Mus musculus with 6 samples.

Results

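The Schlafen (Slfn) genes were followed in whole lungs of WT and ISM1-/- mice. The 7 genes Slfn1, Slfn2, Slfn3, Slfn4, Slfn5, Slfn8 and Slfn9 were picked out by symbol from the 54532 genes of the count table. The family was chosen after the genotype difference of Slfn4 in these same libraries was known, so the WT against ISM1-/- values of its members are a description and carry no test. Lying in the cluster on chromosome 11 is part of how the members were defined. Their promoters, coding sequences and primers did not enter the choice.

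Lungs of untreated mice were perfused to remove blood at 2 months of age and poly-A RNA was sequenced, with 3 libraries per genotype. WT mice were C57BL/6J animals bought from a vendor, while the ISM1-/- mice, knockouts for the secreted protein isthmin 1, were made in-house on the C57BL/6J background. Genotype and source of the animals therefore cannot be told apart. Total counts were between 37606133 and 42345042 per library. Ism1 itself had 3098, 3215 and 2975 reads in WT against 2784, 2508 and 2953 in the libraries labelled ISM1-/-, where its level was 87.6% of WT (log2 fold change −0.19, standard error [SE] 0.0709, adjusted p = 0.217 in the quasi-likelihood test of edgeR, adjusted by Benjamini-Hochberg over all 18689 genes tested). The Ism1 transcript count therefore does not check the genotype labels, and the libraries are named by their labels throughout.

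Schlafen genes are found in mammals as a cluster of related genes that immune cells switch on in response to interferon and during activation. Mouse members fall into short proteins (Slfn1 and Slfn2), proteins of intermediate length (Slfn3 and Slfn4) and long proteins that also carry a helicase-like domain (Slfn5, Slfn8, Slfn9 and Slfn14). Slfn1 and Slfn2 are known for holding T cells in a resting state, Slfn4 is known from neutrophils, monocytes and macrophages, and Slfn5 is a nuclear protein. The longest coding sequences in the GENCODE M 21 annotation followed this grouping, with 337 codons in Slfn1, 378 in Slfn2, 640 in Slfn3, 602 in Slfn4, 884 in Slfn5 and 910 in both Slfn8 and Slfn9.

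The members lay on chromosome 11 (GRCm38) between positions 82951349 and 83215154, a stretch of 263806 bases with 22 entries of the gene table. The order along the chromosome was Slfn5, Slfn9, Slfn8, Slfn2, Slfn1, Slfn4 and Slfn3. Slfn9 and Slfn8 were on the minus strand and the other members on the plus strand. Slfn4 occupied 83175186 to 83190216 and Slfn3 began just after it, at 83191330 to 83215154. Slfn1 occupied 83116849 to 83122670, Slfn2 83065112 to 83070678 and Slfn5 82951349 to 82964840, while Slfn8 covered 83002158 to 83020810 and Slfn9 82978390 to 82991830.

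All 7 members had a promoter in the RefSeq set (GRCm38.p6), taken as 250 bases before the start site and 50 bases from it. The promoters of the short and intermediate members are shown because they hold one run of letters in common, ACTTCCTGG, which is in capitals. The promoter of Slfn5 is shown beside them because it holds instead a core of the interferon-stimulated response element, again in capitals. The RefSeq start site of Slfn5, 82952102, lies inside the gene as placed above, which begins at 82951349.

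Slfn4 promoter, chr11:83174936-83175235, plus strand: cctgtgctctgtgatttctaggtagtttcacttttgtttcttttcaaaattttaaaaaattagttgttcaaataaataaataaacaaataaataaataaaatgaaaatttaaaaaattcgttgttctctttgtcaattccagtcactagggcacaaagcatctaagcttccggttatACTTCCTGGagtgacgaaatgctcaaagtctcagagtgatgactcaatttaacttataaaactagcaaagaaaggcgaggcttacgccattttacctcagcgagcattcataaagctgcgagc
Slfn1 promoter, chr11:83116570-83116869, plus strand: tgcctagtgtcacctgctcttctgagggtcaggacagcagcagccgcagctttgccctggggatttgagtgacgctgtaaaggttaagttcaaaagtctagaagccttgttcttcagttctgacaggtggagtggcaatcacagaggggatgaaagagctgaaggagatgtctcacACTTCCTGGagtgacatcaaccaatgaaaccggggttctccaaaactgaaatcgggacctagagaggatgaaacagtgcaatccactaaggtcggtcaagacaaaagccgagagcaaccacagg
Slfn2 promoter, chr11:83064862-83065161, plus strand: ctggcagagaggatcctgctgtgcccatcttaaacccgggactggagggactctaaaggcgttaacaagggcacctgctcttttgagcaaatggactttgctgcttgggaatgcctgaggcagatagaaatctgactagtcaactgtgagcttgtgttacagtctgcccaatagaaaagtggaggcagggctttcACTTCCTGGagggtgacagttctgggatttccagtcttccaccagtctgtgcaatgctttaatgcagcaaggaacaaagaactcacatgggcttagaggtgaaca
Slfn3 promoter, chr11:83191080-83191379, plus strand: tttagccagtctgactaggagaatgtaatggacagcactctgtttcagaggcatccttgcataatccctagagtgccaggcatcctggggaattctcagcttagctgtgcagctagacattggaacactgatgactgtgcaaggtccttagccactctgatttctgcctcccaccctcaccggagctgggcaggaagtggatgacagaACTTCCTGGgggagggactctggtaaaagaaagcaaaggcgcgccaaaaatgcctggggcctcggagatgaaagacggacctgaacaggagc
Slfn5 promoter, chr11:82951852-82952151, plus strand: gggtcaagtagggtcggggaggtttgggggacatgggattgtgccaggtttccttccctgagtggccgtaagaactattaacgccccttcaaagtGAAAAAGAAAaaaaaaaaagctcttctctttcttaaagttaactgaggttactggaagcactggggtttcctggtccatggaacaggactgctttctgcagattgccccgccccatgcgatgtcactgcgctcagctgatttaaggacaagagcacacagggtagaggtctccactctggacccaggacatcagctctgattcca

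ACTTCCTGG started 73 bases before the start site in Slfn4, 74 in Slfn1, 55 in Slfn2 and 42 in Slfn3, and it was found in none of the windows of Slfn5, Slfn8 and Slfn9. It was the longest run that these 4 promoters share, found by comparing them after the members were known, and 277 of 32851 promoter windows (0.843%) hold it on either strand. In Slfn4 and Slfn1 the shared run extended to ACTTCCTGGAGTGAC, 15 bases long, which was found in 2 promoter windows of the whole set (0.00609%), their own. In Slfn1 and Slfn2 it was CACTTCCTGGAG, 12 bases long and found in 0.0365% of promoters. Slfn8 and Slfn9 shared a different and longer run, 20 bases long and found in 0.00913% of promoters, their own included. The shared letters are a description of related genes and do not show that a factor binds there.

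Motifs known from interferon and myeloid gene promoters were searched on both strands of the same windows. The core of the interferon-stimulated response element (ISRE), GAAANNGAAA, was found in the long members Slfn5, Slfn8 and Slfn9. It started 155 bases before the start site of Slfn5, 48 bases before that of Slfn8 and 45 bases before that of Slfn9. The promoter of Slfn14, a long member that was not among those followed, did not hold the core. The core was found in 3.44% of all promoters. Slfn8 had a second start site in the set, from which the same match lay 136 bases upstream. The composite element of ETS and IRF factors (EICE), GGAANNGAAA, was found in Slfn2 only, 59 bases before the start site and overlapping the run ACTTCCTGG, and in 2.72% of all promoters. The site of C/EBP factors, TTGCNNAA, was found in Slfn2 and Slfn3 and in 10.8% of all promoters. The interferon gamma-activated site (GAS), TTCNNNGAA, and the PU.1 core, GAGGAAGT, were found in no member and in 8.3% and 3.2% of all promoters. The windows of Slfn4 and Slfn1 held none of these 5 motifs as spelled.

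Slfn5 was the most abundant member by far in the deposited FPKM, in which levels between genes are compared here. These are divided by library total and by a gene length that is not given in the sources used here. For Slfn3, Slfn4, Slfn5, Slfn8 and Slfn9 that length was shorter than the gene length listed beside the counts. The shares and the order of the members depend on it. Slfn5, a long nuclear member, had 99.0 ± 5.29 FPKM in WT and 110.9 ± 12.8 FPKM in ISM1-/- (mean ± SD, n = 3 libraries each, as for all values given this way). Slfn2, a short member, followed with 21.6 ± 0.990 FPKM in WT and 27.8 ± 3.88 FPKM in ISM1-/-. The other 5 members lay between 1.26 and 6.16 FPKM in every library. Together the family summed to between 127.9 and 139.6 FPKM in the WT libraries and between 151.9 and 164.3 FPKM in the ISM1-/- libraries, and Slfn5 made up 75.3%, 75.2% and 73.6% of that sum in WT and 65.9%, 70.5% and 76.2% in ISM1-/-.

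**Figure D1:**
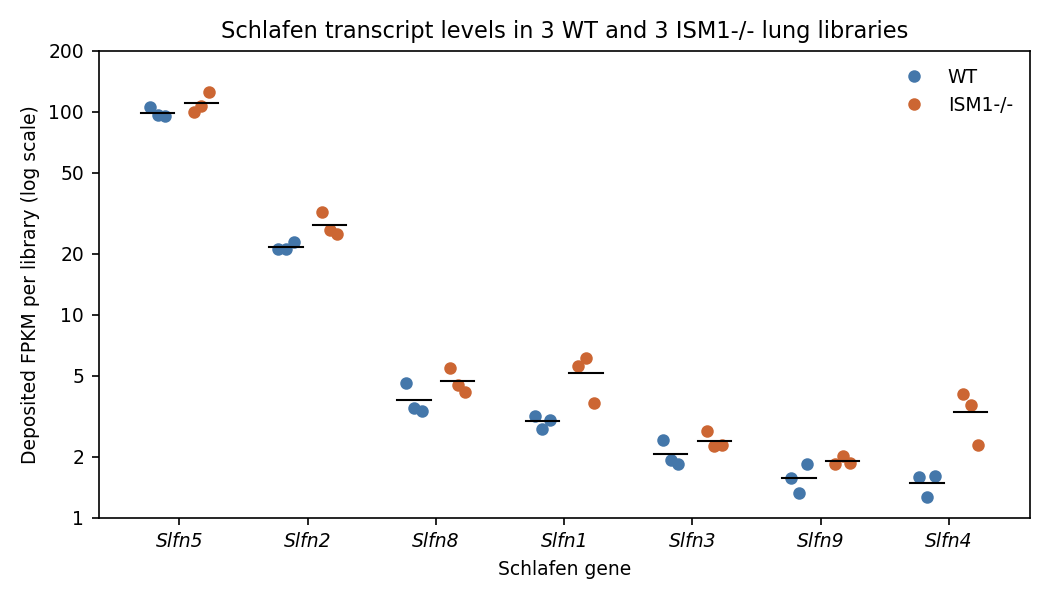
Deposited FPKM of the 7 Schlafen members (vertical axis, log scale) in each of 3 WT and 3 ISM1-/- lung libraries. Points are single libraries in the order of replicate numbers and black lines are group means. Slfn5 lies between 95.8 and 125.2 FPKM and Slfn4 moves from the lowest mean in WT to above Slfn3 and Slfn9 in ISM1-/-. The order between genes depends on the gene length used for the FPKM.

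Below Slfn2 the order of the members in the deposited FPKM differed between the genotypes. This order depends on the length used for each gene. With the gene lengths listed beside the counts, Slfn4 would lie above Slfn9 in WT too, and Slfn1 would not lie below Slfn8 there. In WT the mean order was Slfn8 (3.81 ± 0.704 FPKM), Slfn1 (2.98 ± 0.224 FPKM), Slfn3 (2.06 ± 0.307 FPKM), Slfn9 (1.58 ± 0.259 FPKM) and Slfn4 (1.49 ± 0.195 FPKM). Neighbours in this order did not overlap between libraries, except Slfn9 and Slfn4, of which Slfn9 was the higher one in 2 of 3 libraries. In ISM1-/- the order was Slfn1 (5.15 ± 1.31 FPKM), Slfn8 (4.71 ± 0.675 FPKM), Slfn4 (3.31 ± 0.929 FPKM), Slfn3 (2.40 ± 0.230 FPKM) and Slfn9 (1.91 ± 0.0983 FPKM). Here Slfn1 overlapped with Slfn8 and Slfn4 with Slfn3. Within single libraries Slfn4 ranked 6, 7 and 7 of the 7 members in WT and 5, 5 and 6 in ISM1-/-, so replicate 3 kept Slfn4 just under Slfn3, at 2.27 against 2.28 FPKM. These ranks follow from the values on which the family was chosen and are given as a description.

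Slfn4, the myeloid-associated member of intermediate length, had the largest genotype difference of the family. Its counts in the WT lungs were 190, 166 and 196 and those in the ISM1-/- lungs 545, 430 and 285. Scaled to library size by TMM, these were 5.04, 4.0 and 5.07 CPM in WT and 12.8, 11.3 and 7.30 CPM in ISM1-/-. Every ISM1-/- library was above every WT library, with replicate 3 the lowest of its genotype. The mean was 4.70 ± 0.609 CPM in WT and 10.5 ± 2.85 CPM in ISM1-/-, a log2 fold change of 1.16 (SE 0.199) or 2.23-fold. The log2 fold change was 0.99 without ISM1-/- replicate 1 and 1.36 without ISM1-/- replicate 3, the ends of the range over the 6 fits that left out 1 library.

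Slfn1, a short member known from developing and resting T cells, came next. It had 223, 212 and 218 reads in WT against 443, 435 and 271 in ISM1-/-, or 5.91, 5.11 and 5.64 CPM against 10.4, 11.5 and 6.95 CPM. The genotypes did not overlap, and ISM1-/- replicate 3 was again the lowest of its group. The mean of 5.55 ± 0.410 CPM in WT and 9.61 ± 2.37 CPM in ISM1-/- gave a log2 fold change of 0.79 (SE 0.175). It ranged from 0.65 without ISM1-/- replicate 2 to 0.98 without ISM1-/- replicate 3.

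Slfn2, whose loss is known to make T cells and monocytes leave the resting state, differed less. Its counts in the WT lungs were 1318, 1451 and 1460 and those in the ISM1-/- lungs 2270, 1660 and 1642, or 35.0, 35.0 and 37.8 CPM against 53.4, 43.7 and 42.1 CPM. The genotypes did not overlap, and ISM1-/- replicate 1 was the highest of its group. The log2 fold change was 0.37 (SE 0.0926), and without ISM1-/- replicate 1 it was 0.26.

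Slfn3, the intermediate member that lies next to Slfn4, did not share the size of that difference. It had 200, 176 and 157 reads in WT against 249, 189 and 199 in ISM1-/-, with 4.53 ± 0.673 CPM against 5.31 ± 0.474 CPM. WT replicate 1, at 5.30 CPM, was above the ISM1-/- replicates 2 and 3, at 4.98 and 5.10 CPM. The log2 fold change was 0.23 (SE 0.145), from 0.16 without ISM1-/- replicate 1 to 0.36 without WT replicate 1.

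The long members, which carry the helicase-like domain, overlapped between the genotypes. Slfn5 had 10484, 10585 and 9794 reads in WT against 11274, 10768 and 13161 in ISM1-/-, and 262.1 ± 13.8 CPM against 295.4 ± 37.5 CPM. Unlike Slfn4 and Slfn1, Slfn5 was highest in ISM1-/- replicate 3, at 337.3 CPM, and its log2 fold change of 0.17 (SE 0.0877) was 0.07 without that library. Slfn8 had 490, 405 and 364 reads in WT against 653, 481 and 466 in ISM1-/-, with a log2 fold change of 0.32 (SE 0.143), and WT replicate 1 was above the ISM1-/- replicates 2 and 3. Slfn9 had 231, 215 and 278 reads in WT against 304, 300 and 291 in ISM1-/-, with a log2 fold change of 0.28 (SE 0.135), and WT replicate 3, at 7.19 CPM, was just above ISM1-/- replicate 1, at 7.15 CPM. With 1 library left out, Slfn8 ran from 0.20 (without ISM1-/- replicate 1) to 0.48 (without WT replicate 1) and Slfn9 from 0.17 (without WT replicate 2) to 0.41 (without WT replicate 3).

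**Figure D2:**
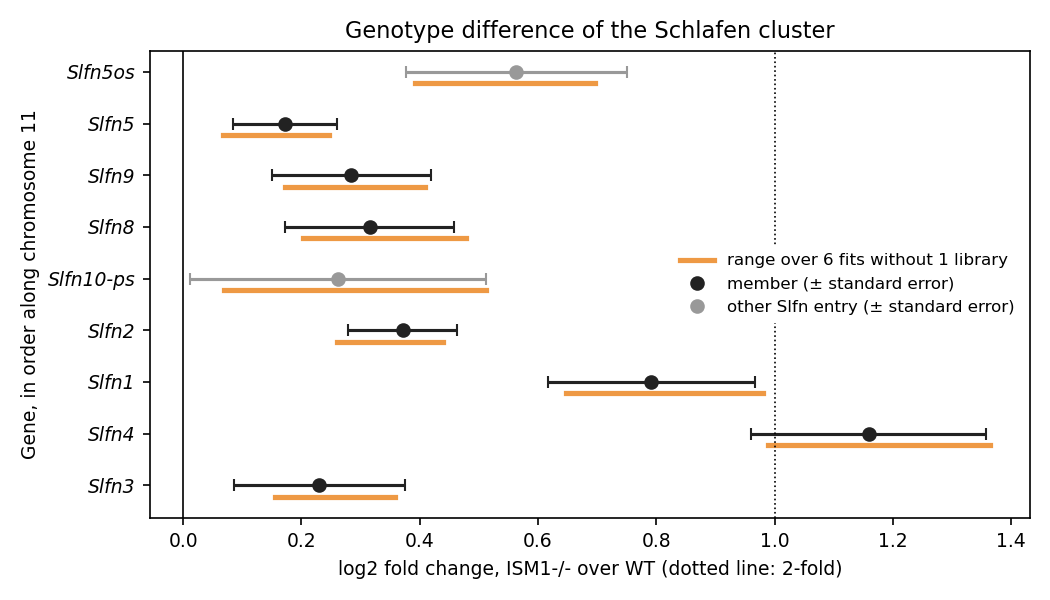
Log2 fold change of ISM1-/- over WT (horizontal axis) for the tested Slfn entries in their order along chromosome 11 (vertical axis), with standard errors from edgeR and, in orange, the range over 6 fits without 1 library. The dotted line marks a 2-fold change, and only the range of Slfn4 reaches it, from 0.99 to 1.36.

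Every member had a higher mean in ISM1-/-. Their log2 fold changes ran from 0.17 to 1.16 with a median of 0.32, where 51.2% of all genes tested had a higher mean and their median was 0.00430. All 7 members passed the filter of 0.5 CPM in at least 1 library. At a 2-fold change or more and an adjusted p under 0.1 in edgeR's quasi-likelihood test, 1 of 7 members was counted as higher, Slfn4, against 0.284% of all genes tested. This count was 0 without WT replicate 2 (Slfn4 log2 fold change 1.05) and without ISM1-/- replicate 1 (0.99). Without the minimum fold change, 3 of 7 members passed, Slfn1, Slfn2 and Slfn4, all of them higher, where 1.38% of all genes passed as higher and 3.34% as lower. Slfn1 passed at this threshold without WT replicate 1 or ISM1-/- replicate 3 and not in the other 4 fits that left out 1 library, and Slfn2 passed only without ISM1-/- replicate 3. The same 3 members were those whose ISM1-/- libraries all lay above the WT libraries, which held for 9.33% of all genes. The family was chosen on this contrast, so nothing is read from these counts.

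The spread between libraries was not the same for all members. The coefficient of variation in CPM was larger in ISM1-/- than in WT for Slfn4 (27.2% against 12.9%), Slfn1 (24.6% against 7.38%), Slfn2 (13.1% against 4.50%) and Slfn5 (12.7% against 5.28%). It was smaller for Slfn3 (8.93% against 14.8%), Slfn8 (13.5% against 18.4%) and Slfn9 (5.07% against 16.3%). With 3 libraries per genotype these coefficients are imprecise and were not tested against each other.

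Of the 4 other entries with a Slfn symbol, Slfn5os and Slfn10-ps passed the filter and were tested. Slfn5os, a transcript antisense to Slfn5 over 9333 bases, had 100, 101 and 127 reads in WT against 151, 192 and 147 in ISM1-/-. Its genotypes did not overlap, but its log2 fold change of 0.56 (SE 0.187) did not pass (adjusted p = 0.168, edgeR's quasi-likelihood test). How reads were assigned by strand is not given in the sources used here, and with a mean of 136.3 counts against 11011 for Slfn5, reads of the 2 genes cannot be told apart. The pseudogene Slfn10-ps had 80, 48 and 60 reads in WT against 93, 60 and 78 in ISM1-/- (log2 fold change 0.26, adjusted p = 0.683, edgeR's quasi-likelihood test), with 0.07 without WT replicate 2 and 0.51 without WT replicate 1. Slfn14, a long member known from platelets, had between 5 and 12 counts per library and Slfnl1, on chromosome 4, between 1 and 4, and neither passed the filter on low counts.

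Genes around the cluster did not pass the test. The 3 nearest tested genes on the left, Nle1, Unc45b and Unc45bos, had log2 fold changes of −0.04, −0.03 and −0.35, and those on the right, AI662270, Gm11427 and AA465934, had 0.14, 0.14 and −0.11. Between the members, Gm11425 had 0.36 and Gm20234, which is antisense to Slfn2, had −0.13. Their adjusted p ran from 0.563 to 0.953 (edgeR's quasi-likelihood test). Gm11427 is an unprocessed pseudogene that shares sequence with Slfn3 and Slfn4.

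Slfn3 and Slfn4, and likewise Slfn8 and Slfn9, are near copies, so sequence that they share bears on how reads are assigned. Slfn3 and Slfn4 were 91.8% identical over 1782 aligned coding bases, and Slfn8 and Slfn9 92.7% identical over 2733. Slfn1 and Slfn2 were 71% identical over 1005 bases, and Slfn5 was 62.8% identical to Slfn8 over 2580. At the read length of 150 bases, no window of the annotated transcripts of Slfn1, Slfn2, Slfn4, Slfn5 or Slfn8 was found in a transcript of another gene, while 1.29% of windows of Slfn3 were found in Gm11427 and 1.46% of windows of Slfn9 in Slfn10-ps. In windows of 50 bases, 15.6% of those of Slfn3, 10.8% of those of Slfn4, 14.6% of those of Slfn8 and 11.5% of those of Slfn9 were shared with another gene. Slfn1 shared 0.606%, Slfn5 3.37% and Slfn2 4.27%.

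**Figure D3:**
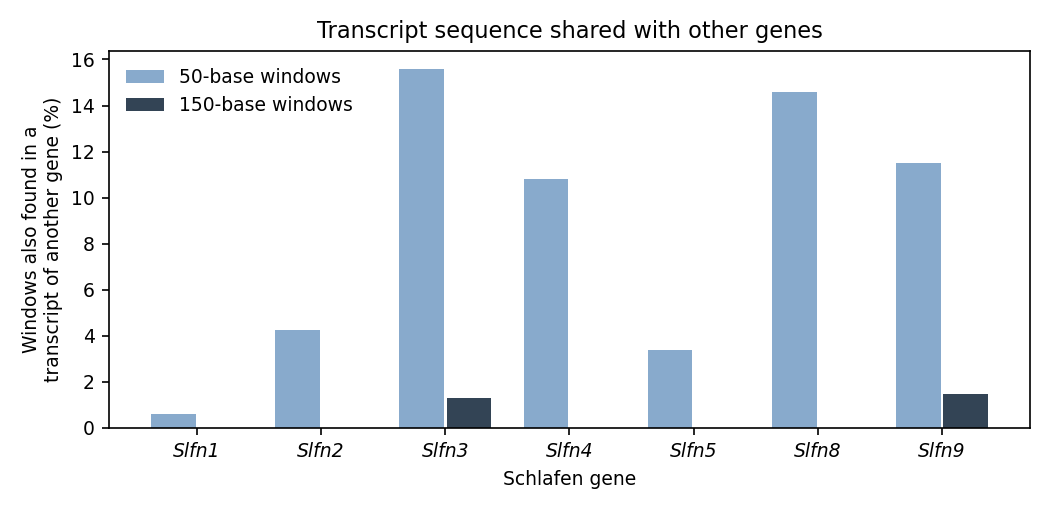
Share of windows of 50 and of 150 bases (bars, in percent) in the transcripts of each Schlafen member that are also found in a transcript of another gene. Bars at 150 bases are above 0 only for Slfn3 (1.29%) and Slfn9 (1.46%), while at 50 bases Slfn3 reaches 15.6%.

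Summing the counts of similar members before the fit gives a value that does not depend on how reads were split between them. Slfn3 and Slfn4 together had 390, 342 and 353 reads in WT against 794, 619 and 484 in ISM1-/-, with a log2 fold change of 0.78 (SE 0.149). The genotypes did not overlap in this sum. Slfn1 and Slfn2 together gave 0.44 (SE 0.0929), Slfn8 and Slfn9 together gave 0.30 (SE 0.101), and all 7 members gave 0.24 (SE 0.0669).

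RT-PCR of Slfn4 by the authors was not analysed here. Its primers are shown because they separate Slfn4 from its near copy. Both primers, 21 bases long, matched Slfn4 transcripts exactly, in 2 of its 3 annotated transcripts, and no other gene, and they enclosed 111 bases.

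Slfn4 forward primer: ccacagacatccatagagccc
Slfn4 reverse primer: atgaaatcctttccacgacgc

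Against the transcripts of the other members the forward primer had at least 6 mismatches, in Slfn8, and 8 in Slfn3. The reverse primer had at least 6 mismatches, in Slfn3 and in Slfn5.

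Genes of the interferon pathway, which is known to induce Schlafen genes, were taken as lists and tested. Beside these lists and those that follow, 1.38% of all genes tested passed an adjusted p of 0.1 as higher and 3.34% as lower. A higher mean in ISM1-/- was found for 51.2% of all genes tested. None of 10 genes for interferon receptors and JAK-STAT signalling passed an adjusted p of 0.1, with a median log2 fold change of 0.03. Irf9, a subunit of the factor that binds the ISRE, had 0.20 (SE 0.0653, adjusted p = 0.167, edgeR's quasi-likelihood test). None of 7 interferon regulatory factors passed (median 0.12), and Irf7 had 0.23 (SE 0.154). Without ISM1-/- replicate 3, 1 of these factors passed as higher, and the median ran from 0.04 without ISM1-/- replicate 1 to 0.19 without ISM1-/- replicate 3. Of 24 interferon-stimulated genes 1 passed, Oas2, a sensor of double-stranded RNA, which rose by 0.39 (log2; SE 0.0900, adjusted p = 0.0541, edgeR's quasi-likelihood test). The list had a median of 0.12 and 23 of its 24 genes had a higher mean in ISM1-/-. Its summed level was 765.2 to 959.0 CPM in WT and 885.1 to 965.1 CPM in ISM1-/-, so the genotypes overlapped. The count of interferon-stimulated genes that rose was 3 without WT replicate 1, 2 without ISM1-/- replicate 3 and 0 without any other library.

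Regulators of T cell rest and homing, a process in which Slfn2 is known, moved in part. Of 11 genes, Il7r, the receptor of the survival factor interleukin 7, rose by 0.46 (SE 0.0867, adjusted p = 0.0298, edgeR's quasi-likelihood test), and 2 genes rose in all. The median of the list was 0.00473. Klf2 and Foxo1, which hold T cells at rest, had −0.23 and −0.15 and did not pass. All genes of this list were read in whole lung RNA and not in T cells alone. Their values therefore do not show the state of T cells. The count that rose was 0 without WT replicate 2 or ISM1-/- replicate 1, 1 without WT replicate 3 or ISM1-/- replicate 2, and 3 without ISM1-/- replicate 3.

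Markers of several white blood cells were higher in the ISM1-/- libraries as well. In whole lung RNA, more cells of a type and more RNA per cell cannot be told apart. Of 10 tested neutrophil markers 5 rose, S100a8 by 1.49 (SE 0.224), S100a9 by 1.46 (SE 0.222), Cxcr2 by 1.21 (SE 0.263), Csf3r by 0.70 (SE 0.190) and Ngp by 2.38 (SE 0.531), and none passed as lower. The mean was higher in ISM1-/- for 9 of the 10. Ltf, with the most CPM of the list, went the other way with −0.32 (SE 0.111). It had 53.8 CPM in WT against 43.2 CPM in ISM1-/-, and the genotypes did not overlap. In DESeq2, and without ISM1-/- replicate 3, 1 neutrophil marker passed as lower. Ly6g, Camp, Mpo and Elane did not pass the filter on low counts. The 10 tested markers, Ltf included, summed to 110.7, 105.6 and 124.8 CPM in WT and 180.7, 166.5 and 132.7 CPM in ISM1-/-. The order of the ISM1-/- replicates in this sum was that of Slfn4. The sums of the T, B and NK cell markers had this order too. So did those of the interferon-stimulated genes, the interferon regulatory factors and the interferon receptors and JAK-STAT genes. Of 8 classical monocyte markers 1 rose and 1 fell, F13a1, by 0.65 (SE 0.114), with a median of −0.09. No marker passed among 8 of alveolar macrophages (median −0.16), and among 8 of interstitial macrophages Folr2 fell by 0.51 (SE 0.135). The monocyte count that rose was 0 without WT replicate 2 or 3 or ISM1-/- replicate 1 or 2. The interstitial macrophage count that fell was 2 without ISM1-/- replicate 3 and 0 without each of the other 5 libraries in turn. Their part in the levels of Slfn4 was not tested.

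Lymphocyte markers differed by type. Of 7 natural killer (NK) cell markers 6 rose (Klrb1c, Klrk1, Gzma, Prf1, Eomes and Klre1, by 0.79 to 0.94), and their sum was 34.3 to 56.6 CPM in WT and 66.7 to 91.6 CPM in ISM1-/-. Of 8 B cell markers 3 rose, among them Ms4a1 by 0.66 and Cd79a by 0.59, and the sum of the list was 129.9 to 148.4 CPM in WT and 150.6 to 265.1 CPM in ISM1-/-. None of 10 T cell markers passed (median 0.31), and their sum overlapped, with 54.5 to 107.9 CPM in WT and 73.9 to 115.6 CPM in ISM1-/-. Without ISM1-/- replicate 3, and in DESeq2 with all libraries, 2 T cell markers passed as higher, and the median ran from 0.12 without ISM1-/- replicate 1 to 0.66 without WT replicate 3. The part of these cells in the levels of Slfn1 and Slfn2 was not tested. Leaving out 1 library moved these counts. Neutrophil markers that rose numbered 2 without WT replicate 2 or ISM1-/- replicate 1 or 2, 3 without WT replicate 1, 5 without WT replicate 3 and 7 without ISM1-/- replicate 3. There were 0 B cell markers rising in every such fit but that without ISM1-/- replicate 3, which gave 8, and 0 NK cell markers rising without WT replicate 2 or 3 or without ISM1-/- replicate 1 or 2.

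**Figure D4:**
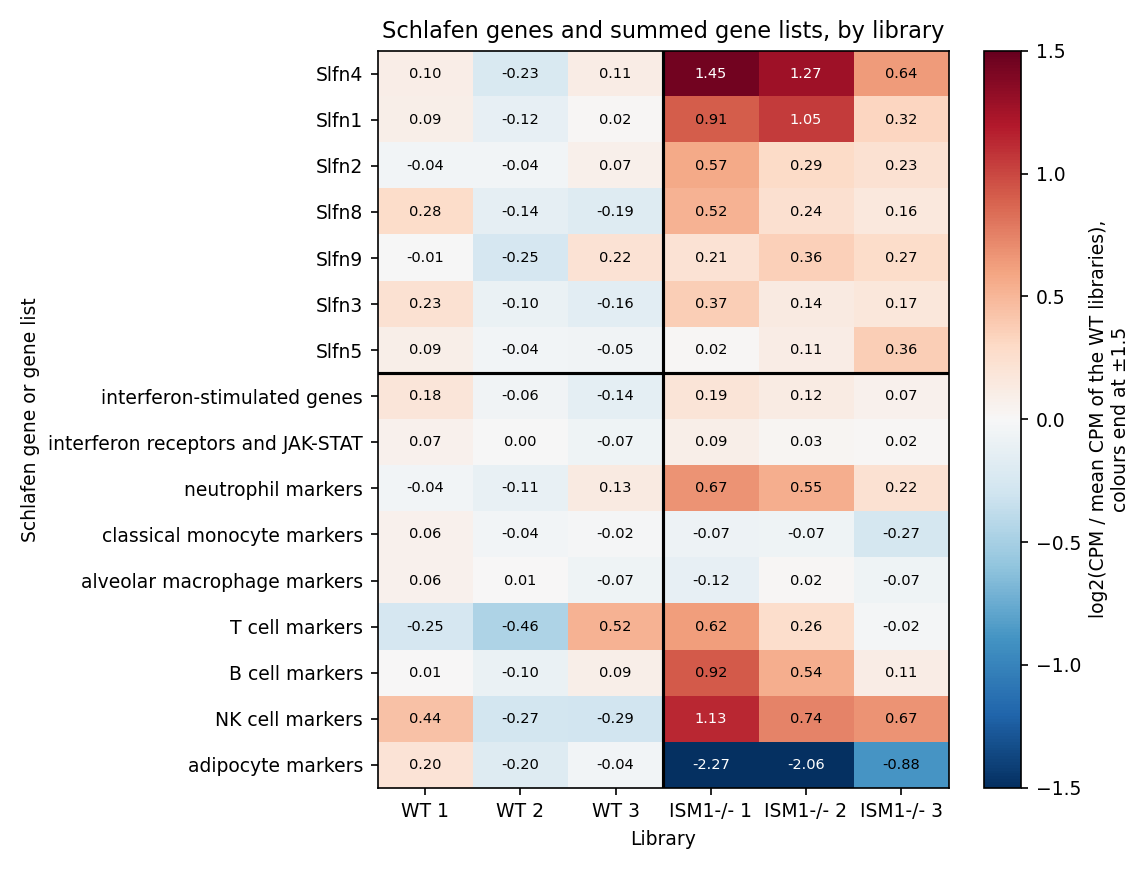
Log2 of CPM relative to the mean CPM of the WT libraries (colour and printed value) for the 7 Schlafen members and for the summed CPM of 9 gene lists (rows) in each library (columns). Among the ISM1-/- libraries, the third is lowest for Slfn4, Slfn1, Slfn2 and Slfn8, while Slfn5 is highest there. The third is also lowest for every list sum shown except those of alveolar macrophage and adipocyte markers.

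Other tissue markers also moved with genotype. All 7 adipocyte markers fell, by 0.90 to 2.19, and their sum was 161.6 to 213.1 CPM in WT and 38.3 to 100.3 CPM in ISM1-/-, with ISM1-/- replicate 3 nearest to WT. Without ISM1-/- replicate 2 the count that fell was 2, and without WT replicate 2 or ISM1-/- replicate 1 it was 3. Of 7 cardiomyocyte markers Myl7 fell by 1.11 (SE 0.302). This count was 3 without ISM1-/- replicate 3, 0 without each of the other 5 libraries in turn, and 0 in DESeq2. Of 10 markers of lung epithelium and endothelium Scgb1a1 and Foxj1, of club and ciliated cells, both fell by 0.51, and the count was 1 without WT replicate 2 or ISM1-/- replicate 2. None of 6 platelet markers and none of 6 tested erythroid markers passed, with medians of 0.56 and 0.18. The platelet count was 1 without ISM1-/- replicate 1 or 3 and in DESeq2. The erythroid median was −0.83 without ISM1-/- replicate 2, −0.14 without WT replicate 2 and 0.72 without WT replicate 3. Whether unequal amounts of such tissue bear on the Schlafen levels was not tested.

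The genes whose profile over the 6 libraries was most like that of Slfn4 were sought among 15875 genes, by the root mean square difference of log2 CPM after subtracting each gene's mean. The 5 closest were Crabp1 (0.140), Igkc (0.177), Arhgap27os3 (0.197), Gm26751 (0.208) and Gm11346 (0.209). Igkc is the constant region of the antibody kappa light chain, and it had 1704, 1743 and 1966 reads in WT against 5399, 3369 and 3307 in ISM1-/-. Those closest to Slfn1 were Gm19719 (0.101), Ctsw (0.121), Gm28198 (0.121), Igkj5 (0.124) and Gm16316 (0.132). Ctsw, a protease of cytotoxic lymphocytes, had 215, 189 and 185 reads in WT against 420, 327 and 225 in ISM1-/-. No other Schlafen gene was among these neighbours.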

How the data were processed

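Untreated lungs of WT and ISM1-/- mice were compared, 3 libraries each, with groups taken from the labels. The authors trimmed reads, mapped paired 150-base reads of a directional poly-A library to GRCm38 with STAR and deposited raw counts per gene. The counting program, annotation release and strand setting are not given in the sources used here. The authors also deposited FPKM values, counts divided by library total and a gene length. For some members that length is not the one listed beside the counts. Total counts were 37606133 to 42345042 per library. The study calls the replicates biological, but the labels do not name single mice, so p-values measure the spread between these libraries. In a chi-square comparison, every pair of libraries differed by more than sampling noise, with a statistic per degree of freedom of 5.56 to 32.1 over 15 pairs.

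The genotypes were compared with edgeR 4.0.16 in R 4.3.3 (TMM, estimateDisp, glmQLFit, glmQLFTest) over 18689 genes that reached 0.5 CPM in 1 library or more, with Benjamini-Hochberg adjustment. A gene was called at an adjusted p under 0.1 and a 2-fold change. Alternatives used DESeq2 1.42.0, limma 3.58.1 on log2(FPKM + 0.1) and log2(FPKM + 1), other scalings, filters and thresholds, a replicate block, sums of similar members and leaving out each library. The scripts were tested on simulated data. Sequences were read with Python 3.11.15 and Biopython 1.88 from RefSeq promoters and GENCODE M 21 transcripts, and coding sequences were aligned pairwise, keeping pairs aligned over most of the shorter one. Named were the 7 members, other Slfn entries, tested genes within and the 3 nearest on each side of the cluster, Ism1, list genes with an adjusted p under 0.1, further examples of a list, and the 5 genes closest in profile to Slfn4 and Slfn1 with a mean of at least 1 CPM. Some genes of the lists are not reported here by name. Members and lists were chosen with earlier results of these data known.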

Additional observations from a re-analysis of the deposited data

How the results depend on the processing

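All 118 log2 fold changes of members under 19 alternatives were positive. The value of each sum of members is counted in them once for every member it holds. The family was chosen on this contrast, so nothing is read from their sign. Of the 118 values, 113 stayed on the same side of the thresholds, and 5 values of Slfn4 fell below them: those without WT replicate 2 (1.05) and without ISM1-/- replicate 1 (0.99), that on log2(FPKM + 1), which understates low genes (0.77), and the sums over Slfn3 and Slfn4 (0.78) and over all members (0.24). Slfn4 was the 1 member called by DESeq2 too. With no minimum fold change 3 members passed, and 882 genes in all, 258 higher and 624 lower, against 106 called, 53 higher and 53 lower. At an adjusted p under 0.05 there were 51 genes, 25 higher and 26 lower. With a mean above 2 CPM there were 37 (18 and 19), and with no filter on low counts 293 (113 and 180). Leaving out 1 library gave 0 to 1 members and 31 to 188 genes, 17 to 86 of them higher and 12 to 102 lower. The fewest genes in all and lower were called without ISM1-/- replicate 1, the fewest higher without WT replicate 2, and the most of each without ISM1-/- replicate 3.

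Replicate numbers are shared between genotypes, and same-numbered libraries deviated together only weakly (correlations −0.03, 0.03 and 0.04). With 3 libraries per genotype this cannot show whether same-numbered libraries were handled together. With the replicate block 1 member and 130 genes were called. Low counts limit Slfn3, Slfn4, Slfn9 and Slfn1, and 3 libraries per genotype limit all values. The list counts without 1 library were added after seeing the data.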
